A study of Mus musculus with 6 samples.

Results

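The genes described here encode the proteins of the cytosolic ribosome, measured in mouse tibialis anterior, a muscle of the shin, on 6 Affymetrix MGU74Av2 arrays. Members were chosen from gene symbols alone. A probe set, the group of short probes that reads 1 transcript, belonged here when the platform annotation gave it a single gene whose symbol was that of a cytosolic ribosomal protein (Rpl or Rps with a number, Rpsa, or Rplp0 to Rplp2, without pseudogenes and the Rps6k kinases). This gave 35 of the 8251 genes with a probe set of their own, on 49 of 12488 probe sets: 16 genes of the small subunit, 14 of the large subunit, 1 of the stalk and 4 paralogues. Another 38 probe sets listed a ribosomal protein gene together with other genes and were left out.

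The arrays carried 3 pools of total RNA, each made from 4 animals and measured on 2 arrays, A and B. The eccentric pool came from muscles taken 48 h after 50 contractions during which the active muscle was lengthened, and the isometric pool from muscles taken 48 h after 50 contractions at fixed length. The control pool came from opposite legs, which had contracted only as far as a torque measurement needed. The sources used here do not give strain, age or sex, nor say whether the control legs belonged to animals of the eccentric or of the isometric experiment. Each group is thus 1 biological sample. The spread between arrays A and B covers labelling and hybridisation but no animals, and no p-value for the kind of contraction was computed. In whole muscle, a change in the number of cells of a type and a change in RNA per cell cannot be told apart.

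The cytosolic ribosome joins amino acids into protein from messenger RNA. It has a small subunit, which reads the message and whose proteins carry the prefix Rps, and a large subunit, which forms the peptide bonds and whose proteins carry the prefix Rpl, with a stalk of Rplp proteins that recruits translation factors. Muscle fibres make more ribosomes when they grow. Mitochondria have ribosomes of their own, built from nuclear genes with the prefixes Mrpl and Mrps.

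Cytosolic ribosomal protein messengers are known for a start rich in C and T, the terminal oligopyrimidine tract, through which growth signals set their translation. RefSeq start sites on GRCm38.p6 were found for 28 of the 35 genes, with 37 promoters of 250 bases before and 50 after the start. A run of at least 5 bases of C or T lay across the start in 8 of the 37 promoters (21.6%), against 10.1% of all 32851 promoters in the table. The windows of 30 bases around the start, 15 on each side, are shown for 5 members that carry the run, in capitals, to show what the searched run looks like. The window of Rps19, the bright member that differed most between pools, is shown beside them and has no such run.
Rps10, chr17:27635230-27635259, minus strand: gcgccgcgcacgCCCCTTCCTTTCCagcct
Rps18, chr17:33955651-33955680, minus strand: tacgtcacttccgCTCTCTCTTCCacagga
Rpl7a, chr2:26910792-26910821, plus strand: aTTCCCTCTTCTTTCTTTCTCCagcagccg
Rps27, chr3:90213634-90213663, minus strand: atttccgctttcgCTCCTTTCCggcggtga
Rps24, chr14:24490663-24490692, plus strand: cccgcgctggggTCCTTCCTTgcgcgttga
Rps19, chr7:24884577-24884606, plus strand: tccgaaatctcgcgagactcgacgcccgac
Rps19 has 3 annotated starts, none of which had the run, and the one farthest upstream is shown. The search depends on the exact place of the annotated starts, which was not checked. A missing run therefore does not show that a messenger lacks the tract. Rps24 has 2 starts, and only the one shown had it. The run was found in 18.2% of 22 promoters of genes with a bright probe set and in 26.7% of 15 promoters of the other members. Searched on both strands of the whole promoter, CCGGAAG, a core of ETS factor sites, was found in 32.4% of member promoters against 8.86% of all, and AAGATGG, a core of YY1 sites, in 24.3% against 6.34%. For CCGGAAG the share was 36.4% of promoters of genes with a bright probe set and 26.7% of those of the other members, and for AAGATGG it was 9.09% and 46.7%. These letters share AAG, so 1 stretch can hold both. TATAAA was found in 10.8% against 13.6%. Such matches describe the letters only.

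Values are the deposited signals, linear intensities with no unit of abundance, so each probe set is compared with itself across pools. A floor was set at the 40th percentile, a signal of 120.8. Of the 49 probe sets 28 lay above it on all 6 arrays, 11 on some and 10 on none. For 6 genes (Rpl32, Rpl38, Rps15, Rps20, Rpl39l and Rps27l) every member probe set stayed below it on all arrays, at signals of at most 103.7. Rpl35a, Rpl39 and Rps14 passed it on too few arrays to be compared. At the other end, 21 probe sets of 19 genes were bright, with a mean log2 signal over all 6 arrays in the top 10% of the 10833 single-gene probe sets (above a signal of 1435.1). Because this class uses the mean of all arrays, it favours no pool, and the results rest on it.

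Ribosomal protein signal was higher in the eccentric pool by a small amount shared by most bright members. The geometric mean over the 21 bright probe sets was 9713 and 9622 on the eccentric arrays, 8562 and 8096 on the control arrays, and 7980 and 9116 on the isometric arrays. Both eccentric arrays were above the other 4, while the isometric arrays enclosed both control arrays. Over the 1063 bright probe sets of other genes the geometric mean was 3010 and 3000 on the eccentric arrays, 3195 and 3168 on the control arrays, and 3153 and 3236 on the isometric arrays. There the eccentric arrays were the lowest.

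**Figure D1:**
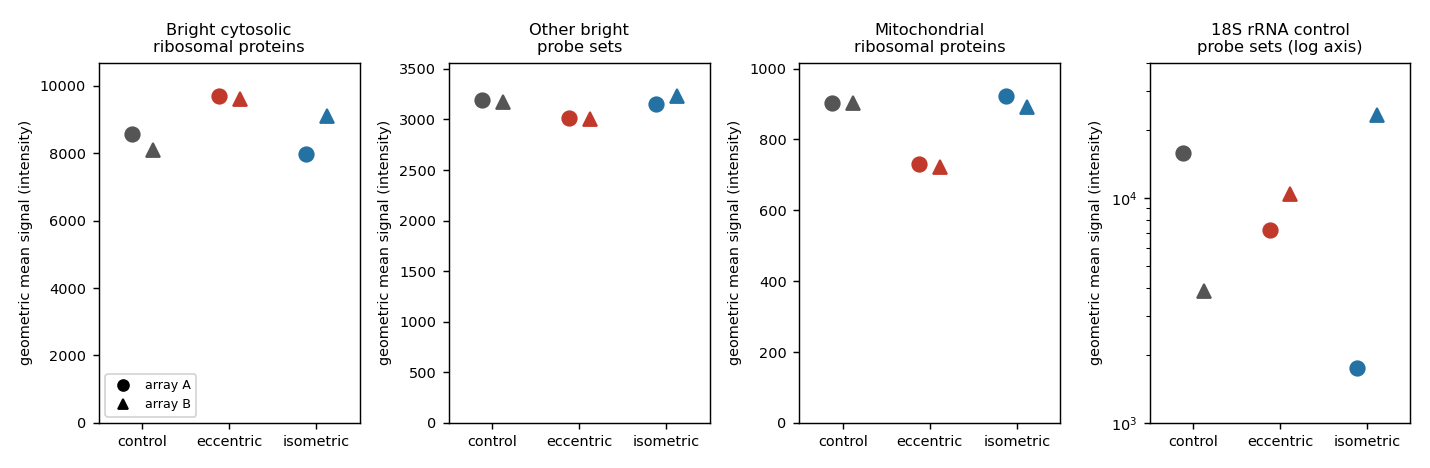
Geometric mean signal (intensity) per array, on linear axes from 0 and a log axis for 18S rRNA, for 21 bright cytosolic ribosomal protein probe sets, 1063 other bright probe sets, 66 mitochondrial ribosomal protein probe sets and the 18S rRNA control probe sets; circles are arrays A and triangles arrays B of each pool. The eccentric arrays are highest for cytosolic ribosomal proteins (9713 and 9622) and lowest for mitochondrial ones (732 and 722), and 18S rRNA is highest on isometric B (23474).

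Eccentric against control asks what differed after contractions with lengthening. Among the 21 bright members the median log2 difference was 0.23, a 1.18-fold difference, and 18 were above 0. In 16 both eccentric arrays exceeded both control arrays, and in 1 both lay below. Over all 6745 single-gene probe sets measured, 30.3% were higher in this sense, 31.0% were lower, and the median was -0.02. Among bright probe sets of other genes 26.1% were higher and 51.5% lower, and their median was -0.17. The bright small-subunit members had 8 of 11 higher and 0 lower, with a median of 0.23, and the bright large-subunit members with the stalk had 8 of 10 higher and 1 lower, with a median of 0.23. Without control B the median of the bright members was 0.14, and without control A it was 0.24.

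None of the bright members differed by as much as 2-fold. A probe set was called when the pools differed by at least 2-fold and all 4 pairings of their arrays had 1 sign, as 6.12% of all measured probe sets did, 5.0% higher and 1.13% lower. Of 31 member probe sets measured between the eccentric and control pools, 1 was called higher, a dim one of Rps4x, and 0 lower. With a 1.5-fold threshold, Rps19, Rpl13a and the Rps4x probe set were higher and Rps13 lower, where 11.9% and 7.56% of all probe sets were. limma was fitted to all 6 arrays with Benjamini-Hochberg adjustment, and it compares these pools, not animals. For eccentric against control it called 1 member, Rpl13a, and 8.7% of all probe sets. With the array letter as a block it called 0 members and 4.63% of all, and in both fits 3 members had an unadjusted p below 0.05 for higher and 1 for lower. Of all 6745 probe sets 1786 had an unadjusted p below 0.05 without the block and 1648 with it, a larger share than among the 31 members.

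Of the bright small-subunit members, Rps19 differed most. Rps19 is needed for maturation of the small subunit, mutations in it cause Diamond-Blackfan anaemia, and a dimer of the protein released from cells attracts monocytes. Its signal was 1943 and 2292 on the control arrays, 3139 and 4057 on the eccentric arrays, and 1718 and 2005 on the isometric arrays. Both eccentric arrays were above the other 4, and the control and isometric arrays overlapped. As mean ± SD over n = 2 arrays of 1 pool, the signal was 3598 ± 650 (eccentric), 2117 ± 247 (control) and 1861 ± 203 (isometric). The eccentric pool was thus 1.69-fold above control, and the 4 pairings of arrays gave log2 differences of 0.45 to 1.06.

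Most other bright small-subunit members had smaller differences. Rps10, which lies near the mRNA entry of the subunit, had 10063 and 9628 on the eccentric arrays against 8571 and 7443 on the control arrays, a 1.23-fold difference. Rps18, of the head of the subunit, had 13572 and 12859 against 12026 and 10480, a 1.18-fold difference. Rps7, which takes part in making the small subunit's ribosomal RNA, had 7436 and 7577 against 6087 and 6462, a 1.2-fold difference. In all 3 the eccentric arrays lay above the control arrays. Rps3a1 was 1.19-fold higher, at 14996 and 14428 against 13582 and 11277. Rpsa, also known as the laminin receptor, had 3363 and 3380 against 2749 and 3020, a 1.17-fold difference. Neither of these overlapped with control.

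Not every bright small-subunit member shared this. Rps3, which lies at the mRNA entry and also takes part in DNA repair, had 6355 and 6843 on the eccentric arrays against 7525 and 6617 on the control arrays, with a log2 difference of -0.10 and overlapping arrays. The bright probe set of Rps24 had 24689 and 21779 against 22999 and 23390, which also overlapped. Rps28 had a pair of bright probe sets. On 1 of them the eccentric arrays were higher, at 11741 and 11364 against 10691 and 8081, and on the other, with the suffix _f_at, the arrays overlapped at 24228 and 23689 against 25066 and 21333. That suffix marks probes that match several related sequences, many pseudogenes are known for ribosomal proteins, and 5 of the 21 bright probe sets carry this or another suffix than plain _at. Among the 16 plain ones 13 were higher and 1 lower, and the median was 0.23.

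In the large subunit the bright members had differences of the same order. Rpl10a, of the L1 stalk where spent tRNA leaves, had 5903 and 5605 on the eccentric arrays against 4887 and 4867 on the control arrays, a 1.18-fold difference. Its other probe set had a 1.35-fold difference, at 3648 and 3640 against 2463 and 2970. Rpl8, which lies near the centre where peptide bonds form, had 11837 and 11150 against 10134 and 9083, a 1.2-fold difference. In each of these the eccentric arrays lay above both control arrays. Rpl7 did so too, at 11361 and 13166 against 10410 and 9569, as did Rpl19, Rpl41 and Rpl7a at 1.17-fold, 1.2-fold and 1.15-fold.

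A few large-subunit members were close to control. Rpl6 differed little but without overlap, at 6439 and 6422 against 5983 and 6175. Rpl37a was the bright member with both eccentric arrays below the control arrays, at 5080 and 5108 against 5224 and 5250, a log2 difference of -0.04 that was 0.10 after quantile normalization. Rplp0, the base of the stalk and a frequent reference gene for PCR, had 20781 and 19963 against 20575 and 17957, and the arrays overlapped. The other stalk genes, Rplp1 and Rplp2, were not analysed here.

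**Figure D2:**
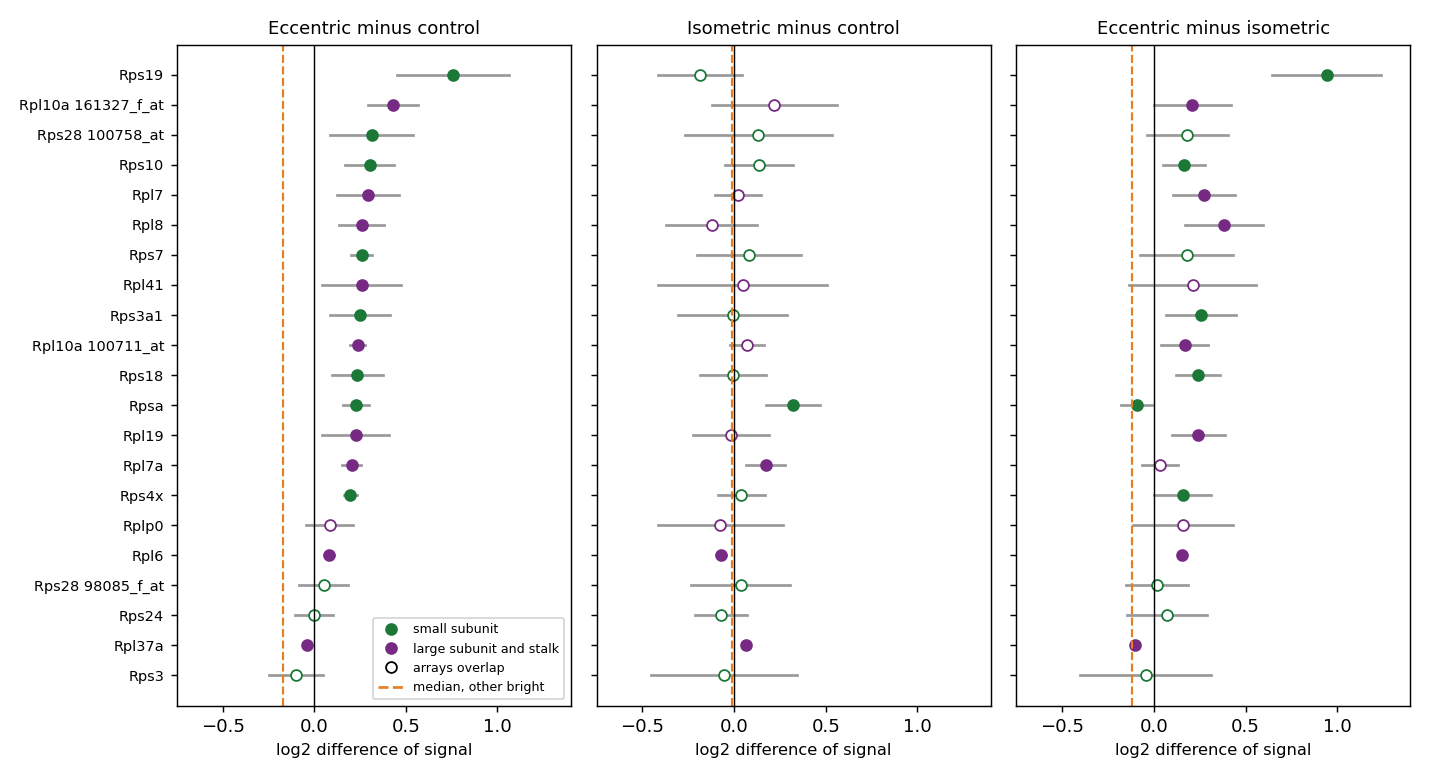
Log2 difference of signal between pools (x axis) for the 21 bright ribosomal protein probe sets (y axis), with grey lines from the lowest to the highest of the 4 array pairings, filled points where the arrays of the pools do not overlap, open points where they do, and the median of other bright probe sets as a dashed line. Rps19 is farthest right against control in the eccentric pool (0.76), and between isometric and control the median of the members is 0.04.

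Dimmer probe sets lay outside this range in both directions. Rpl13a, which can leave the ribosome after interferon-gamma to silence inflammatory messengers, had 579.2 and 579.3 on the eccentric arrays, 289 and 346 on the control arrays and 365 and 419 on the isometric arrays. Both eccentric arrays were the highest of the 6, at 1.83-fold over control. Without control B the log2 difference of Rpl13a was 1.002. Rps13, of the small subunit, had 87.2 and 152 on the eccentric arrays against 252 and 217 on the control arrays. The arrays did not overlap, but 1 eccentric value lay below the floor, so the log2 difference of -0.79 was in part set by it, and with a floor at the 20th percentile it was -1.02. Rps29 had 353 and 359 against 444 and 327, which overlapped.

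Several probe sets of 1 gene did not always give the same value. Rps4x, the X-linked form of the S4 protein, had 5 of them. The bright one had 13684 and 13131 on the eccentric arrays against 11727 and 11659 on the control arrays, a 1.15-fold difference without overlap. The called one was dim and carried the suffix _r_at: it was below the floor on both control arrays, at 113 and 56.9, with 289 and 229 in the eccentric pool and 322 and 196 in the isometric pool. Against the floor the first pool is at least 2.13-fold and the second at least 2.08-fold higher. The first call ended without eccentric A (log2 difference 0.92) and the second without isometric A (0.70). Another dim Rps4x probe set had 196 and 258 against 248 and 287, which overlapped, and the other two lay below the floor on every array.

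Rpl22, whose protein also binds RNA outside the ribosome, had a pair of dim probe sets. On 1 of them the signal was 462 and 326 on the eccentric arrays, 463 and 608 on the control arrays and 308 and 636 on the isometric arrays, with a log2 difference from control of -0.45 in the eccentric pool and barely separate arrays. On the other it was 310 and 305, 259 and 307, and 255 and 250, where the eccentric and control arrays overlapped and the eccentric arrays were 1.22-fold above the isometric ones. No gene had probe sets that differed in sign between pools with separate arrays on both.

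**Figure D3:**
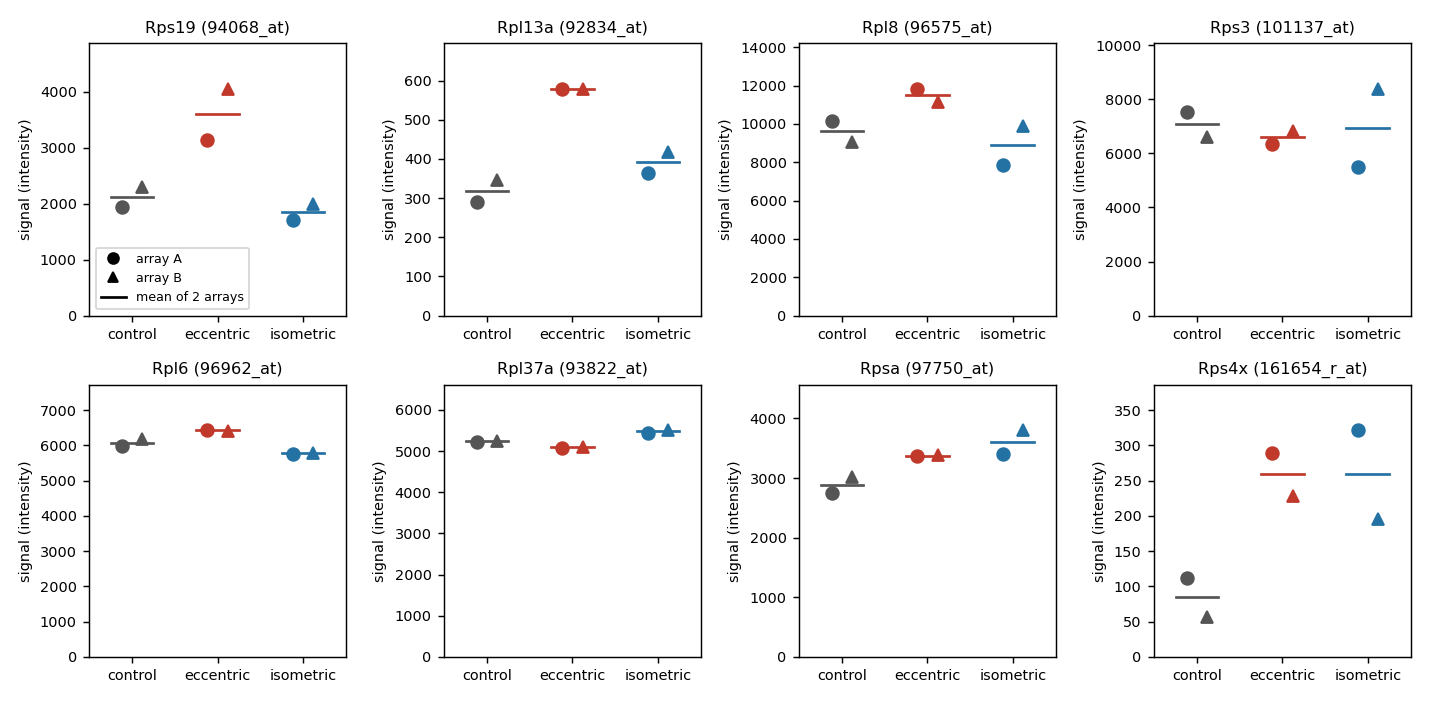
Signal (linear intensity from 0) on each array for 8 member probe sets, circles for arrays A, triangles for arrays B and lines for the mean of 2 arrays. Rps19 and Rpl13a are highest on both eccentric arrays, Rpsa is above control in both exercised pools, and the dim Rps4x probe set lies below the floor of 120.8 on both control arrays.

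Paralogues, related genes that can stand in for a ribosomal protein in some tissues, gave few values. Rps27l, a p53 target related to Rps27, and Rpl39l, a form known from testis, stayed below the floor on all 6 arrays. Rps27 had 911 and 1010 on the eccentric arrays, 949 and 828 on the control arrays and 910 and 955 on the isometric arrays, which overlapped throughout. Rpl7l1 lay above the floor on 3 arrays of different pools, so it entered no comparison, and neither did Rpl39, above it on 1. Rps4l had 294 and 281 on the eccentric arrays, 272 and 194 on the control arrays and 233 and 243 on the isometric arrays, on a probe set whose suffix _s_at marks possible detection of related transcripts. The eccentric arrays were the highest, at 1.25-fold over control. Rpl3l, the muscle form of Rpl3, and Rpl3 itself were not analysed here.

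Isometric against control asks the same of contractions at fixed length and shares the control arrays with the eccentric values above. The bright members had a median log2 difference of 0.04, with 12 above 0 and 9 below. In 3 both isometric arrays exceeded both control arrays and in 1 both lay below, where 18.6% of all single-gene probe sets were higher and 19.2% lower, and where 191 of the 1063 bright probe sets of other genes were higher and 18.9% lower. After quantile normalization 6 were higher and 0 lower. Of 32 measured members the dim Rps4x probe set was called, where 1.27% of all probe sets were (0.908% higher, 0.363% lower), and with a 1.5-fold threshold it was again the 1 member called, where 3.83% were higher and 2.75% lower. limma called 0.0% of all probe sets and 0 members, of which 1 had an unadjusted p below 0.05, as did 688 of all 6609 probe sets.

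The 3 bright members that were higher were Rpsa, Rpl7a and Rpl37a, and the lower one was Rpl6. Rpsa had 3406 and 3807 on the isometric arrays against 2749 and 3020 on the control arrays, a 1.25-fold difference, and was thus higher in both exercised pools. Rpl7a had 7779 and 8655 against 7127 and 7448, a 1.13-fold difference, and was also higher in both. Rpl37a had 5449 and 5511 against 5224 and 5250, and Rpl6 had 5767 and 5798 against 5983 and 6175. Of the dim members Rpl13a was 1.23-fold higher without overlap, Rps13 had a log2 difference of -0.40 at 186 and 169 against 252 and 217, and 1 dim Rps28 probe set had 184.0 and 183.5 against 87.8 and 168, the first of which lay below the floor. Rps19 overlapped, with a log2 difference of -0.19.

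The arrays of the isometric pool differed from each other more than that pool differed from control. The bright members were higher on isometric B than on isometric A in 19 of 21 probe sets, with a median log2 difference A minus B of -0.18. Rps3 had 5505 and 8393 on these arrays, Rplp0 had 15420 and 21595, and Rps7, with the opposite order, had 7834 and 5612. In the control pool the median of A minus B was 0.12, with 13 higher on A, and in the eccentric pool it was 0.05. The 18S rRNA control probe sets had geometric mean signals of 1761 and 23474 on isometric A and B, 15861 and 3870 on control A and B, and 7200 and 10401 on eccentric A and B. They were thus higher on isometric B and control A, as the bright members were, but in the eccentric pool they had the other order.

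The direction of the isometric median depended on the array. Against control it was 0.16 without isometric A and -0.09 without isometric B for the bright members. It was -0.06 without control B and 0.08 without control A. When neither control A nor isometric B was used, the eccentric against control median was 0.24, with 18 of 21 above 0. The isometric against control median was then -0.002, with 10 above 0 and 11 below. The part of the 18S rRNA differences in these values was not tested.

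Eccentric against isometric asks what lengthening adds. The bright members had a median log2 difference of 0.17, with 18 above 0, and 11 were higher and 2 lower without overlap. Of all single-gene probe sets 28.2% were higher and 24.3% lower, and of the bright probe sets of other genes 25.3% and 44.5%. The median of the bright members was 0.08 without isometric A and 0.26 without isometric B. Scaled to the array medians, 6 bright members were higher and 2 lower, and the median was 0.09. After quantile normalization 16 were higher and 1 lower, and the median was 0.27.

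Rps19 again had the largest difference among the bright members, 1.92-fold, with all 4 pairings above 0. It passed the 2-fold rule without eccentric A (log2 difference 1.13) and without isometric B (1.06). Rpl8 was 1.3-fold higher, at 11837 and 11150 on the eccentric arrays against 7843 and 9918 on the isometric arrays. Rpl7 was 1.21-fold higher, at 11361 and 13166 against 9688 and 10579, and Rps18 1.18-fold, at 13572 and 12859 against 10559 and 11821. The lower bright members were Rpl37a, with a log2 difference of -0.10 that was 0.02 after quantile normalization, and Rpsa, at 3363 and 3380 against 3406 and 3807. Of 11 measured dim members 4 were higher and 3 lower without overlap. Rpl13a was 1.48-fold higher. The lower ones, all at signals near the floor, were Rps13 (log2 difference -0.38) and 1 dim probe set each of Rps28 (-0.32) and Rps24 (-0.32). Of 32 measured members 0 were called, where 2.36% of all probe sets were (1.73% higher, 0.631% lower), and with a 1.5-fold threshold Rps19 was higher, where 7.55% were higher and 4.87% lower. limma called 0 members and 1.2% of all probe sets, or 0.135% with the array letter as a block, and 2 of the 32 members had an unadjusted p below 0.05 in both fits, as did 1270 of all 6653 probe sets without the block and 1148 with it.

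Mitochondrial ribosomal proteins lay on the other side of 0 in the eccentric pool. Of 66 measured probe sets 59 were below 0 against control, 44 lower and 3 higher without overlap, and the median log2 difference was -0.34. Of all 6745 probe sets 3520 were below 0, 31.0% were lower and 30.3% higher. None of the list passed the 2-fold rule, and Mrpl42 came closest. The list was taken by the prefixes Mrpl and Mrps. Its counts include Mrps36, whose prefix alone does not make it a protein of this ribosome. Mrps15 was lower in the eccentric pool, without overlap with either control or isometric arrays. Mrps12 was on the higher side, at 851 and 729 on the eccentric arrays against 559 and 557 in control. The geometric mean signal of the list was 732 and 722 on the eccentric arrays, 904 and 903 on the control arrays, and 924 and 893 on the isometric arrays, so the eccentric arrays were the lowest. Against isometric the median was -0.34 as well, with 64 of 68 below 0, and isometric against control had 34 above and 34 below 0. Scaled to the array medians, the eccentric against control medians were -0.385 for this list and 0.187 for the bright cytosolic members. After quantile normalization they were -0.391 and 0.338. The difference between the lists was not tested.

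Genes of ribosome biogenesis, which make and process ribosomal RNA and assemble subunits, were more often higher than lower in the eccentric pool. Of 38 measured probe sets 21 were higher (55.3%) and 5 lower (13.2%) without overlap against control, with a median of 0.29. Over all probe sets these shares were 30.3% and 31.0%, and 5.0% were called higher. Nhp2, a protein of the particles that modify ribosomal RNA, was the 1 called in this list. It had 1459 and 1505 on the eccentric arrays, 723 and 616 on the control arrays and 792 and 774 on the isometric arrays. Fbl, the methyltransferase fibrillarin, had 1124 and 1182 against 610 and 715, and Ncl, nucleolin, had 3562 and 3499 against 2361 and 2129, neither of which was called. Isometric against control had a median of 0.08 over 37 probe sets with 0 called, where 1.27% of all probe sets were.

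**Figure D4:**
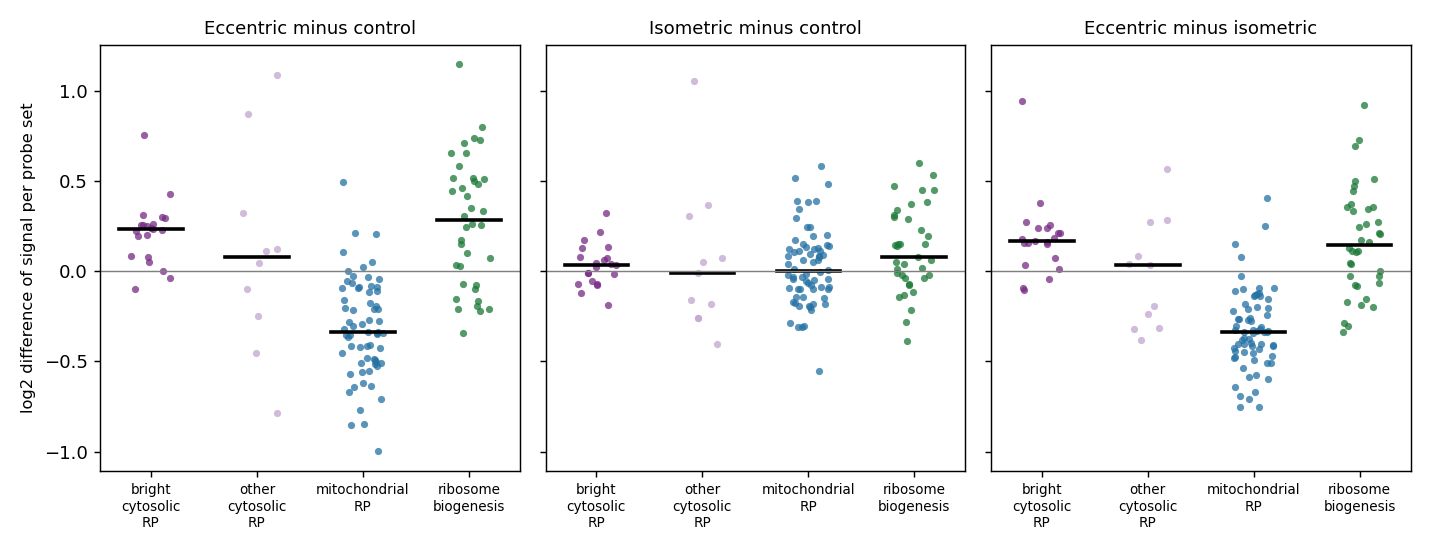
Log2 difference of signal per measured probe set (points) and its median (bars) for bright and other cytosolic ribosomal proteins (RP), mitochondrial ribosomal proteins and ribosome biogenesis genes in the 3 comparisons. Against control, the eccentric medians are 0.23 for bright cytosolic, 0.08 for other cytosolic, -0.34 for mitochondrial and 0.29 for biogenesis probe sets. The isometric ones lie between -0.01 and 0.08.

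Translation factors and related genes with the oligopyrimidine start gave no common direction. Of 12 measured probe sets 3 were higher and 2 lower without overlap in eccentric against control, with a median of -0.01. Eef1a1, the elongation factor that brings tRNA to the ribosome in most tissues and gives way to Eef1a2 in adult fibres, was called at 2.0-fold, with 13936 and 12634 on the eccentric arrays, 6408 and 6867 on the control arrays and 7768 and 8741 on the isometric arrays. Eef2, which moves the ribosome along, had 7172 and 6920 against 6581 and 5592 in control. Tpt1, another messenger of this class, had 29333 and 28325 against 35994 and 30737. Of 9 measured probe sets of growth signalling to the ribosome 0 were called in any comparison. Their medians were 0.07 for eccentric against control, -0.21 for isometric against control and 0.23 for eccentric against isometric. Of all probe sets 6.12%, 1.27% and 2.36% were called in these comparisons.

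Most macrophage and monocyte markers were higher in the eccentric pool, and most myofibre markers were lower. The lists for the remaining cells had few probe sets or gave no common direction. The summed signal of 29 probe sets for 20 macrophage and monocyte genes was 13401 and 13934 on the control arrays, 40369 and 40527 on the eccentric arrays and 22366 and 22079 on the isometric arrays, with Aif1 below the floor on all arrays. Of 21 measured in eccentric against control 16 were called higher and 0 lower, and of 18 in isometric against control 5 were called higher and 0 lower. Over all probe sets 5.0% were called higher and 1.13% lower in the first comparison, and 0.908% and 0.363% in the second. For neutrophil, lymphocyte, fibroblast, endothelial, satellite cell and red blood cell genes, the eccentric against control medians were 0.02 over 5 probe sets, -0.22 over 4, 0.13 over 14, 0.02 over 9, 0.33 over 4 and -0.28 over 2. Of these, 2 neutrophil, 1 lymphocyte, 2 fibroblast and 1 satellite cell probe sets were called higher and 0 lower, and the neutrophil log2 differences ran from -0.88 to 1.47. Ngp, Cd3d, Cd3e, Cd3g, Cd8a and Myf5 lay below the floor on all arrays. Myofibre genes, which define the labelled tissue and were all above the floor, had a median of -0.28 over 13. Of these 10 were lower and 0 higher without overlap, where 31.0% and 30.3% of all probe sets were, and 0 were called. Their summed signal was 317275 and 257805 on the control arrays, 240416 and 233024 on the eccentric arrays, and 227679 and 321476 on the isometric arrays, higher on control A and isometric B as 18S rRNA was. For beta-actin, the log2 signal at the 3' end minus that at the 5' end, which reflects RNA integrity, was 0.43 and 0.46 on the eccentric arrays, 0.01 and 0.07 on the control arrays and 0.14 and 0.28 on the isometric arrays. For Gapdh it was 0.12 and 0.13, -0.05 and -0.07, and -0.07 and 0.27, so the highest was isometric B. The part of these differences in the ribosomal protein values was not tested.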

How the data were processed

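For each probe set and array the authors deposited a linear intensity, for 3 RNA pools on 2 arrays each. All 6 arrays had trimmed means of 499.7 to 499.9. The sources used here do not name software, background correction or probe summary. Arrays were scaled to a common trimmed mean (2% removed at each end), values below the 40th percentile were raised to this floor, and differences are of log2 values. A probe set entered a comparison when 1 or both pools had it above the floor on each array. Calls needed a 2-fold difference and 1 sign in all 4 pairings of arrays.

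Members, lists and tests were chosen with earlier results of these data known. The rule for named members took every called one, the 4 highest and 4 lowest per comparison above the floor on all 4 arrays, paralogues with partners, stalk genes and Rpsa, genes with a role beside the ribosome (Rps3, Rpl13a and Rps19 here), and genes whose probe sets differed in sign. Other members, and the genes named from lists, were chosen after their values were seen. All 35 gene IDs were found in a RefSeq table of GRCm38.p6, which changed 0 symbols, and promoters came from RefSeq. The size rule and limma were tested on simulated data. Python 3.11.15, numpy 2.4.6, pandas 2.3.3, matplotlib 3.10.9, R 4.3.3 and limma 3.58.1 were used. The number of arrays, 2 per pool, limits the precision. Alternatives changed the scaling, floor, filter, fold, choice of probe sets, test and arrays.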

Additional observations from a re-analysis of the deposited data

Results flagged for a closer look

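Rpl6 and Rpl37a stood out because their arrays moved in opposite directions in the exercised pools. For Rpl6 both eccentric arrays lay above and both isometric arrays below the control arrays, with a log2 difference of eccentric minus isometric of 0.15. For Rpl37a both eccentric arrays lay below and both isometric arrays above the control arrays, with a log2 difference of eccentric minus isometric of -0.105. Neither difference was tested. That of Rpl37a was 0.02 after quantile normalization.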

How the results depend on the processing

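The eccentric against control median of the bright members stayed above 0 under every alternative that could move it. Changes of floor or filter and the values without scaling left it at 0.235 and could not have moved it. Bright members lie far above the floor, and the deposited arrays had nearly equal trimmed means. The median was 0.34 after quantile normalization and 0.14 to 0.25 with 1 array left out, lowest without control B. Over the 31 measured members it was 0.23, and 0.32 after quantile normalization, 0.10 with a floor at the 20th percentile, 0.05 with no filter on low values, which adds members at the floor, and 0.10 to 0.23 with 1 array left out. For eccentric against isometric the median of measured members was 0.16, 0.015 with no filter, and 0.007 (without isometric A) to 0.25 with 1 array left out. The causes of these shifts were not tested.

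Members past the 2-fold rule numbered 1 in eccentric against control, 2 with a floor at the 20th percentile, 4 with a 1.5-fold threshold, 0 with a floor at the 60th percentile, with 1 probe set per gene or with only plain _at probe sets, and 0 to 4 with 1 array left out. In isometric against control the number was 1, 0 with those same 3 settings, and 0 to 2 with 1 array left out. In eccentric against isometric it was 0, 1 with a 1.5-fold threshold, 0 to 1 with 1 array left out, and 1 without control A and isometric B, a setting chosen after seeing the data.

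Across 5642 probe sets the differences A minus B correlated at 0.03 between the control and eccentric pools. The values were -0.14 for the control and isometric pools and -0.04 for the eccentric and isometric pools. These correlations cannot show whether arrays of 1 letter were processed together. limma with the replicate block called 0 members in each comparison, against 1, 0 and 0 without the block, and a block with crossed letters, chosen after seeing the data, also called 0. Over all probe sets limma called 587, 0 and 80 without the block and 312, 0 and 9 with it, where 688 and 609 had an unadjusted p below 0.05 in isometric against control.

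Members higher without overlap numbered 6 in isometric against control, 8 to 22 with 1 array left out and 18 without control A and isometric B. Among bright members these were 3, 4 to 14 and 10, and 6 after quantile normalization. In eccentric against isometric they were 15, 9 scaled to the median, with 6 lower where 5 were before, 17 to 24 with 1 array left out and 24 without both arrays. Among bright members these were 11, 6, 11 to 18 and 18. With 1 array in a pool only 2 pairings need to share a sign, which raises such counts. They cannot be set against the shares of all probe sets given above, which rest on 2 arrays per pool. The same holds for counts of calls with 1 array left out. For single members and for counts of lower members, 744 alternative values kept their side of the rule within the array spread, 27 moved further, and 26 rose past and 9 fell below a call or the allowed range of a count. Of 728 such values for single members 43 changed sign, each for a log2 difference of at most 0.26 in size. In comparisons where a member was called, 0 changed sign. The dim Rps4x probe set called against control did change sign in eccentric against isometric, where its log2 difference was 0.03. In eccentric against control only 31 of the 49 probe sets could be compared.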
